A study of Mus musculus with 8 samples.

Results

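Voltage-gated calcium channel subunit transcripts were measured in whole fetal hearts of 4 Dio3+/+ and 4 Dio3-/- mice by total RNA sequencing, each heart coming from an individual mouse on a C57BL/6J background. The members were the 9 genes *Cacna1c*, *Cacna1d*, *Cacna1g*, *Cacna1h*, *Cacnb1*, *Cacnb2*, *Cacnb3*, *Cacna2d1* and *Cacna2d2*, taken from 26590 gene symbols in the deposited table by exact match of the symbol. They accounted for 49 of its 51414 transcript rows, and each gene was represented by its most abundant row, taken by the average of both genotype means. Dio3-/- mice lack type 3 deiodinase, the enzyme that inactivates thyroid hormones, in every tissue, so a difference in heart RNA need not start in the heart. The mutation was made on another inbred background and later crossed into C57BL/6J. The series describes the hearts as male. The title of every sample gives E13.5 (embryonic day), but the age field gives E18.5 for 2 of the 4 Dio3-/- hearts (replicates 3 and 4), and the methods of the study give yet another day. Genotype and a difference in age, if the field is right, cannot be told apart here. The table holds for each genotype the authors' mean over the 4 hearts and their coefficient of variation (CV, the SD divided by the mean), with no value for a single heart.

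A voltage-gated calcium channel consists of a pore-forming α1 subunit, which opens when the membrane depolarizes, and auxiliary subunits that carry it to the surface and tune its opening. In heart muscle, the L-type pores encoded by *Cacna1c* and *Cacna1d* admit the calcium that triggers release from the sarcoplasmic reticulum and thereby contraction. The T-type pores encoded by *Cacna1g* and *Cacna1h* open at more negative voltages, are associated with pacemaking and are prominent in the fetal heart. The β subunits (*Cacnb1*, *Cacnb2* and *Cacnb3*) bind the cytoplasmic side of L-type pores, and the α2δ subunits (*Cacna2d1* and *Cacna2d2*) sit on the outer face of the membrane.

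The starts of these genes are shown for the pair whose differences between genotypes had the lowest *P* values in each direction, *Cacna2d1* with a higher and *Cacnb1* with a lower mean in Dio3-/- hearts. The RefSeq promoter table (GRCm38.p6) held 13 start sites for 7 of the 9 genes, and *Cacna1g* and *Cacna1h* had no entry. Each sequence below covers the 250 bases before a start site, 5′ to 3′ on the strand of the gene, at chr5:15934441-15934690 on the + strand for *Cacna2d1* and at chr11:98022628-98022877 on the - strand for *Cacnb1*. *Cacnb1* had a second start site in the table, and the one shown was chosen for its GC boxes after both had been searched. Capitals mark the GC box GGGCGG or its reverse complement, the motif bound by SP1.
Cacna2d1: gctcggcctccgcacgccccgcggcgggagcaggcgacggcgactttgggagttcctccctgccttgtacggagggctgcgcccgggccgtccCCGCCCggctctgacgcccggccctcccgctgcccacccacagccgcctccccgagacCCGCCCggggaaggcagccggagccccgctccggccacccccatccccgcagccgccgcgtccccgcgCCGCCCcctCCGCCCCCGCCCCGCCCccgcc
Cacnb1: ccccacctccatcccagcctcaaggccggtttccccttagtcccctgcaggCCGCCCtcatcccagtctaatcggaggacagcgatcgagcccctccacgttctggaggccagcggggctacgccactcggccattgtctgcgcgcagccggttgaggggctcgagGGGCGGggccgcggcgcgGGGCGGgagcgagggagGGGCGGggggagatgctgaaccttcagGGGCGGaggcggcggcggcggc
The windows shown were rich in G and C, with 82.4% for *Cacna2d1* and 73.2% for *Cacnb1*, against a median of 52.4% over all 32851 windows of this length. GC boxes occurred 6 times in the *Cacna2d1* window and 5 times in the *Cacnb1* window shown, counting overlapping matches on both strands. The other *Cacnb1* window had 56.0% G and C and no GC box. Of the 13 windows of the subunit genes, 7 held a GC box, and so did 32.7% of all windows. The letters AGGTCA, the core hexamer bound by thyroid hormone receptors and other nuclear receptors, were in none of the 13 windows on either strand, and were in 14.0% of all windows. The windows cover none of the more distant sequence, and these matches are a description of the letters only.

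Differences between genotypes were tested from the means and CVs with limma's moderated test on log2(RPKM + 0.5), where RPKM stands for reads scaled to transcript length and to the reads mapped in the library. The Benjamini-Hochberg adjustment of *P* values covered all 32703 rows whose mean exceeded 1 RPKM in one of the genotypes or both. Fold changes on this scale understate the change of low genes. All 9 subunit genes passed that limit. None of the 9 passed an adjusted *P* value of 0.05 in limma's test, a threshold passed by 2.29% of the 14657 genes tested (336 genes, of which 280 were higher in Dio3-/- hearts, or 1.91% of the tested genes, and 56 were lower, or 0.382%). At an unadjusted *P* value under 0.05, 3 of the 9 (*Cacna2d1*, *Cacna1h* and *Cacnb1*) passed with limma and 2 with a test for unequal variances calculated from the same summaries. For all genes these shares were 19.7% with limma and 16.3% with the other test. The mean was higher in Dio3-/- hearts for 4 of the 9 and lower for 5, with a median log2 fold change of -0.03. Over all genes tested the mean was higher for 63.3%, with a median of 0.04.

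*Cacna1c*, the main L-type pore of working heart muscle, had authors' means of 17.3 (CV 0.10, Dio3+/+) and 18.4 RPKM (CV 0.05, Dio3-/-). Its log2 fold change was 0.08 with a standard error of 0.07 (adjusted *P* = 0.597 by limma), and the 95% interval of the fold went from 0.946 to 1.19. The interval included a fold of 1, and the difference was smaller than the SD among Dio3+/+ hearts. *Cacna1d*, the L-type pore that contributes to sinus node and atrial currents, had 4.22 RPKM (CV 0.11) and 3.82 RPKM (CV 0.02). Its log2 fold change of -0.13 had a standard error of 0.08 (adjusted *P* = 0.422 by limma), with a fold between 0.812 and 1.03. At this spread, an estimated change of at least 1.26-fold for *Cacna1c* or 1.28-fold for *Cacna1d* would have been needed to pass the adjusted threshold. These sizes apply to the estimate and are not a limit for the true change.

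*Cacna1h* and *Cacna1g* encode the T-type pores. *Cacna1h* had means of 18.6 (CV 0.04, Dio3+/+) and 20.7 RPKM (CV 0.03, Dio3-/-), the tightest spread of the 9 genes in Dio3+/+ hearts. The log2 fold change was 0.15 with a standard error of 0.05 (unadjusted *P* = 0.010, adjusted *P* = 0.125 by limma), with a fold between 1.03 and 1.19. *Cacna1g* behaved differently between hearts. The mean of the Dio3+/+ hearts was 5.52 RPKM with a CV of 0.74, and that of the Dio3-/- hearts 3.82 RPKM with a CV of 0.05. A CV as high as that of the Dio3+/+ hearts was reached by few genes, since it stood at the 98.6 percentile of all genes tested. The log2 fold change of -0.48 had a standard error of 0.39 (adjusted *P* = 0.564 by limma), and the interval of the fold, 0.390 to 1.32, left both a large decrease and a small increase possible.

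Although single hearts are not in the table, a mean and a CV bound them, because none of 4 values can lie more than 1.5 SD from their mean and the highest must lie at least SD/√n above it. Allowing for the rounding of the table, the highest Dio3+/+ heart had at least 7.54 RPKM of *Cacna1g*, whereas no Dio3-/- heart could exceed 4.14 RPKM. At least 1 Dio3+/+ heart therefore lay above every Dio3-/- heart. The same held for *Cacnb1* (at least 3.42 RPKM in the highest Dio3+/+ heart, at most 2.67 RPKM in any Dio3-/- heart) and for *Cacnb3* (at least 9.42 against at most 8.71 RPKM). It also held for genes of smaller spread, namely *Cacna1d* (at least 4.44 against at most 3.97 RPKM) and *Cacna2d2* (at least 25.3 against at most 25.0 RPKM). The reverse, a Dio3-/- heart above every Dio3+/+ heart, held for *Cacna1h* and *Cacna2d1*. Their Dio3-/- means of 20.7 and 12.0 RPKM already exceeded the most that any Dio3+/+ heart could have, 19.9 and 11.3 RPKM. For the other genes the reverse was not calculated. The share of all genes with a one-sided separation in either direction was not calculated. Over all genes tested the median CV was 0.09 in Dio3+/+ and 0.06 in Dio3-/- hearts. For *Cacna1h*, Dio3+/+ hearts reached at most 19.9 RPKM and Dio3-/- hearts were at least 19.6 RPKM, so that any overlap of the genotypes was confined to a narrow band. For *Cacna2d1* these bounds were 11.3 and 11.0 RPKM. The bounds excluded an overlap for 0 of the 9 genes and for 3.85% of all genes tested.

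**Figure D1:**
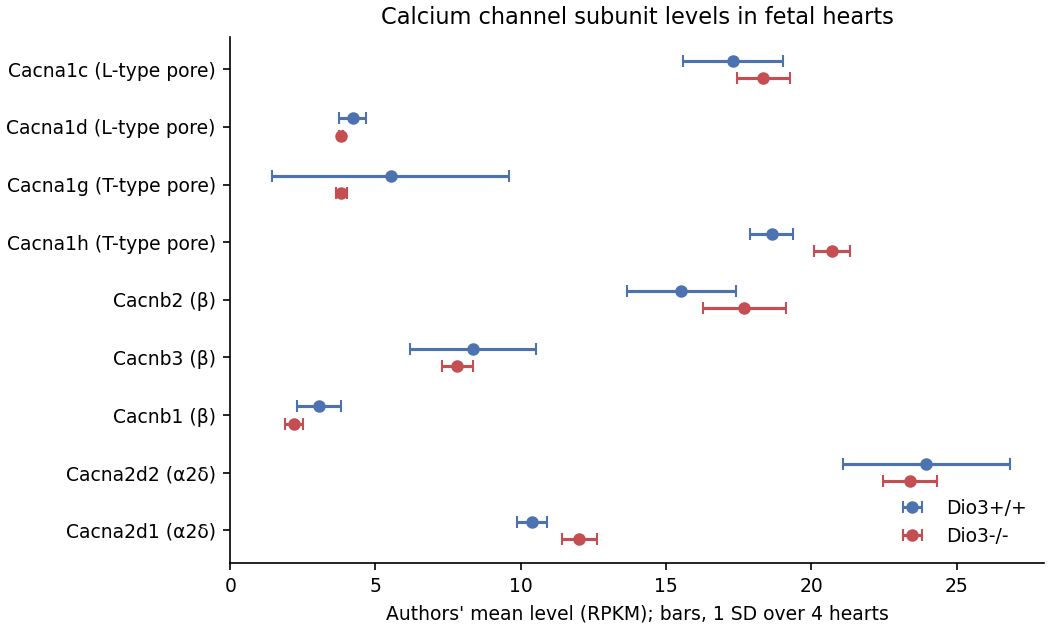
Authors' mean level in RPKM (horizontal axis, linear) of the 9 subunit genes in Dio3+/+ (blue) and Dio3-/- hearts (red), with bars of 1 SD over 4 hearts calculated as mean times CV. *Cacna2d2*, *Cacna1h*, *Cacna1c* and *Cacnb2* were the highest in both genotypes, and the bar of *Cacna1g* was wide in Dio3+/+ hearts only (CV 0.74 against 0.05).

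Among the β subunits, *Cacnb2*, the main β subunit of heart muscle, had means of 15.5 (CV 0.12, Dio3+/+) and 17.7 RPKM (CV 0.08, Dio3-/-). Its log2 fold change was 0.18 with a standard error of 0.09 (adjusted *P* = 0.308 by limma). *Cacnb3* had 8.36 RPKM (CV 0.26) and 7.82 RPKM (CV 0.07), a log2 fold change of -0.09 with a standard error of 0.15 (adjusted *P* = 0.801 by limma). *Cacnb1*, the β subunit of skeletal muscle channels, was the lowest of the 9 genes. It had 3.05 RPKM (CV 0.25) and 2.19 RPKM (CV 0.14), a log2 fold change of -0.40 with a standard error of 0.15 (unadjusted *P* = 0.026, adjusted *P* = 0.195 by limma). *Cacnb1* and *Cacnb3* shared a wide spread in Dio3+/+ hearts, at the 91.1 and 91.7 percentiles of all genes tested.

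Of the α2δ subunits, *Cacna2d1*, which accompanies L-type pores in heart and skeletal muscle, had the lowest *P* value of the 9 genes. Its means were 10.4 (Dio3+/+) and 12.0 RPKM (Dio3-/-), and the CV was 0.05 in both. The log2 fold change was 0.20 with a standard error of 0.06 (unadjusted *P* = 0.0055, adjusted *P* = 0.094 by limma), a fold between 1.05 and 1.25. In order of *P* value it was gene 884 of the 14657 tested. *Cacna2d2*, best known from cerebellar neurons, was the most abundant of all 9 transcripts in these hearts. It had 24.0 RPKM (CV 0.12) and 23.4 RPKM (CV 0.04), a log2 fold change of -0.03 with a standard error of 0.08 (adjusted *P* = 0.869 by limma), with a fold between 0.863 and 1.11.

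**Figure D2:**
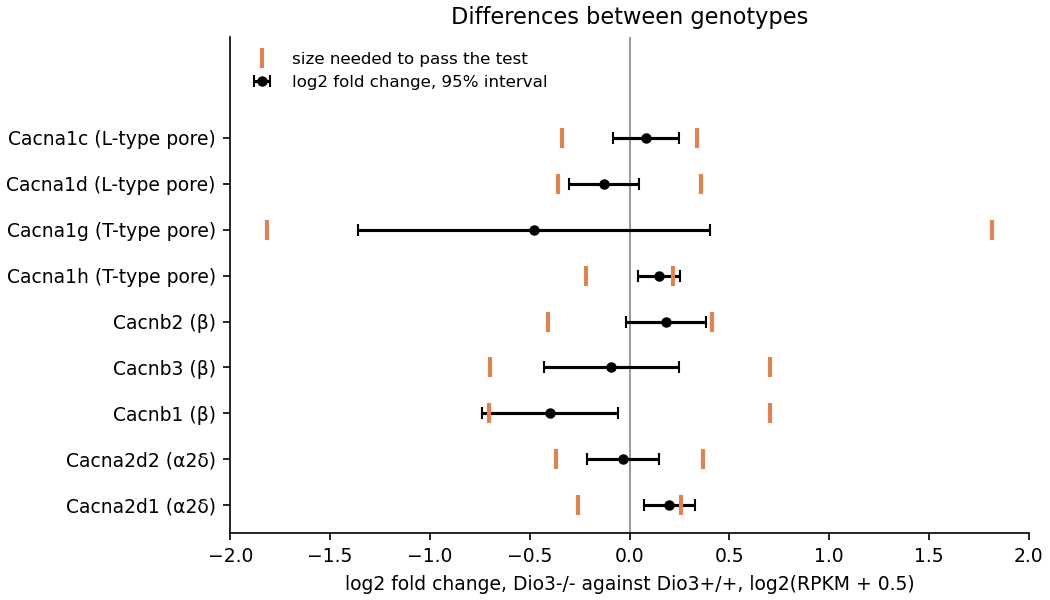
Log2 fold change of Dio3-/- against Dio3+/+ hearts on the log2(RPKM + 0.5) scale for the 9 subunit genes (points) with 95% intervals (bars) and, in orange, the size that would have passed the adjusted threshold. Every point lay inside the orange marks, and the marks ranged from 1.16-fold for *Cacna1h* to 3.52-fold for *Cacna1g*.

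The authors name no unit for the means, which were read here as RPKM. RPKM values are scaled to transcript length, so on that reading levels can be compared between genes. In Dio3+/+ hearts, the order from the highest level was *Cacna2d2*, *Cacna1h*, *Cacna1c*, *Cacnb2*, *Cacna2d1*, *Cacnb3*, *Cacna1g*, *Cacna1d* and *Cacnb1*. Among neighbours in this order, only *Cacna2d2* and *Cacna1h*, and *Cacnb2* and *Cacna2d1*, were apart by more than 1 SD on both sides. In Dio3-/- hearts the order was kept, except that *Cacna1d* and *Cacna1g* had the same mean of 3.82 RPKM. With the smaller SDs of those hearts, the *Cacna1c* and *Cacnb2* levels and those of *Cacna1d* and *Cacna1g* were the neighbours within 1 SD of each other. The place of *Cacna1d* rests on the exact symbol. A row spelled cacna1d, not a member, had 7.57 (Dio3+/+) and 6.63 RPKM (Dio3-/-), above *Cacna1g* in both genotypes.

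Both pore classes contributed nearly equal levels. The summed level of the 4 pore genes was 45.7 (Dio3+/+) and 46.7 RPKM (Dio3-/-), of which the T-type pores made up 52.9% and 52.5%. Within that sum the share of *Cacna1h* was 40.8% and 44.3%, and that of *Cacna1g* was 12.1% and 8.18%. *Cacnb2* made up 57.6% of the summed β level in Dio3+/+ and 63.9% in Dio3-/- hearts, and *Cacna2d1* made up 30.3% and 33.9% of the α2δ level. These shares are quotients of genotype means and have no error, because the values of single hearts, and so their covariance, are not in the table. The pore shares leave out the higher row spelled cacna1d, and which pore class is the larger depends on that choice.

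The transcript rows of a gene share reads and are not independent, but they show whether the highest row stands for its gene. All 49 rows were above the limit for testing, and none passed the adjusted threshold with limma, which 2.15% of all rows tested passed, while 12 of the 49 had an unadjusted *P* value under 0.05, as had 18.8% of all rows tested. Those were 6 of 7 rows of *Cacna2d1*, both rows of *Cacna1h* and 4 of 5 rows of *Cacnb1*. For 8 of the 9 genes all rows had the same sign. The exception was *Cacna1c*, in which 11 rows had log2 fold changes above 0 and a single row of lower level (8.28 RPKM in Dio3+/+ hearts) had one of -0.03. The rows of *Cacna1g* were nearly alike, with log2 fold changes from -0.49 to -0.47 and CVs from 0.74 to 0.77 in Dio3+/+ hearts. A further 3 rows carried a member's symbol in other letter case and were not members. One of them, written cacna1d, had 7.57 (CV 0.14, Dio3+/+) and 6.63 RPKM (CV 0.07, Dio3-/-), a higher level than any row spelled *Cacna1d*, and a difference of -0.18 on the log2 scale (adjusted *P* = 0.355 by limma).

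**Figure D3:**
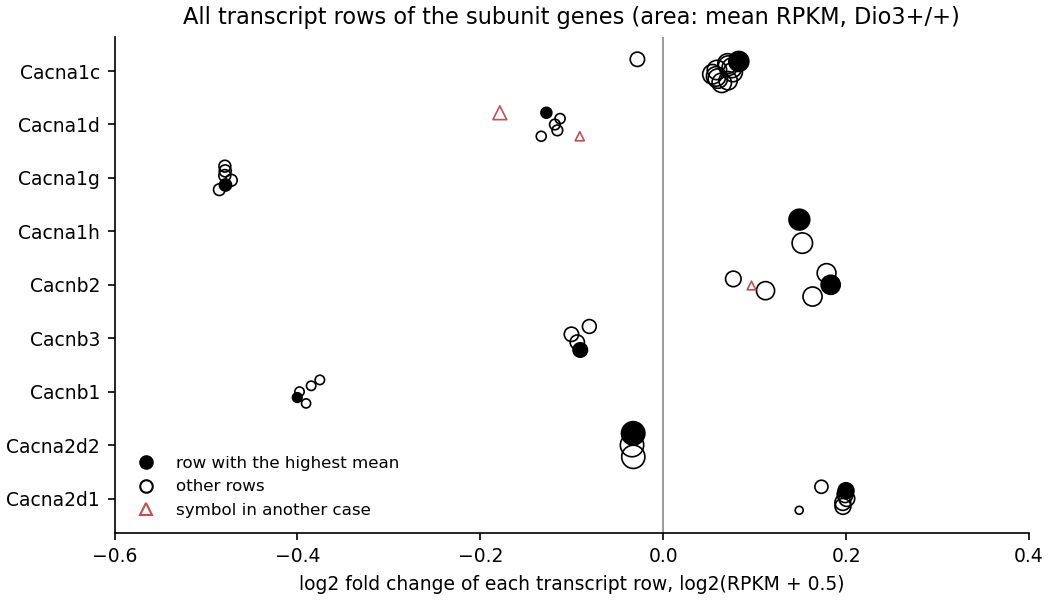
Log2 fold change (horizontal axis, log2(RPKM + 0.5) scale) of each transcript row of the subunit genes, with the marker area growing with the mean level in Dio3+/+ hearts. Filled circles are the rows with the highest mean, open circles the other rows and red triangles the 3 rows with another letter case. The rows of each gene lay close together and on the same side of 0, except for a single row of *Cacna1c*.

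The other pore-forming subunits were low. Of 6 such genes only *Cacna1a*, the pore of neuronal P/Q-type channels, was above 1 RPKM in either genotype, with 1.00 (CV 0.14, Dio3+/+) and 1.26 RPKM (CV 0.06, Dio3-/-). Its log2 fold change was 0.23 with a standard error of 0.10 (unadjusted *P* = 0.047, adjusted *P* = 0.260 by limma). *Cacna1s*, the pore of skeletal muscle, had 0.60 RPKM with a CV of 1.19 and 0.20 RPKM with a CV of 0.27. Of 11 further auxiliary subunit genes 3 were tested, all of them γ subunits, and none passed with limma (0 at an unadjusted *P* value under 0.05). *Cacng7* had 5.01 RPKM (CV 0.58) and 3.07 RPKM (CV 0.24), *Cacng6* had 3.16 RPKM (CV 0.05) and 3.01 RPKM (CV 0.07), and *Cacng4* had 1.52 RPKM (CV 0.66) and 1.55 RPKM (CV 0.24).

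Wide spread in Dio3+/+ hearts was thus seen in the tested genes *Cacna1g*, *Cacng4* and *Cacng7*. Below the limit for testing it was seen in *Cacna1s* and *Cacng1* (CV 1.53), which are themselves among the skeletal muscle markers used here. It was also seen in low subunits outside that list, for example *Cacna1i* (0.04 RPKM, CV 1.48), *Cacng3* (0.03 RPKM, CV 1.27) and *Cacna2d3* (0.33 RPKM, CV 0.77). In Dio3-/- hearts the CVs of these genes were 0.54, 1.16 and 0.14. *Cacna1e*, *Cacnb4* and *Cacna2d4* had CVs of 0.39, 0.25 and 0.20. Other markers of skeletal muscle also had a wide spread. Of 7 such markers 6 were in the table, and their summed level was 131 (Dio3+/+) and 152 RPKM (Dio3-/-), most of it from *Acta1*, an actin that heart muscle also expresses. The regulators *Myog* (9.78 and 1.17 RPKM) and *Myod1* (4.42 and 0.46 RPKM) had CVs of 1.56 and 1.62 in Dio3+/+ hearts, and *Tnnc2* (2.50 and 0.35 RPKM) had 1.62. Of the 4 markers tested, 0 passed the adjusted threshold with limma and 4 had an unadjusted *P* value under 0.05, with *Acta1* higher and the other 3 lower in Dio3-/- hearts. Of 5 sinus node markers, *Tbx3*, a regulator of the sinus node and conduction system, had 10.6 RPKM (CV 0.77) and 7.53 RPKM (CV 0.15). The pacemaker channel *Hcn4* had 9.74 RPKM (CV 0.11) and 11.4 RPKM (CV 0.12). *Shox2*, *Isl1* and *Tbx18* had CVs of 0.36, 0.19 and 0.07 in Dio3+/+ hearts. The mean was higher in Dio3-/- hearts for 3 of the 5 and lower for 2, and 0 passed the adjusted threshold with limma. The part of skeletal muscle or conduction tissue in the spread of *Cacna1g*, *Cacnb1* and *Cacnb3* was not tested. In whole hearts, fewer cells of a type and less RNA per cell cannot be told apart.

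**Figure D4:**
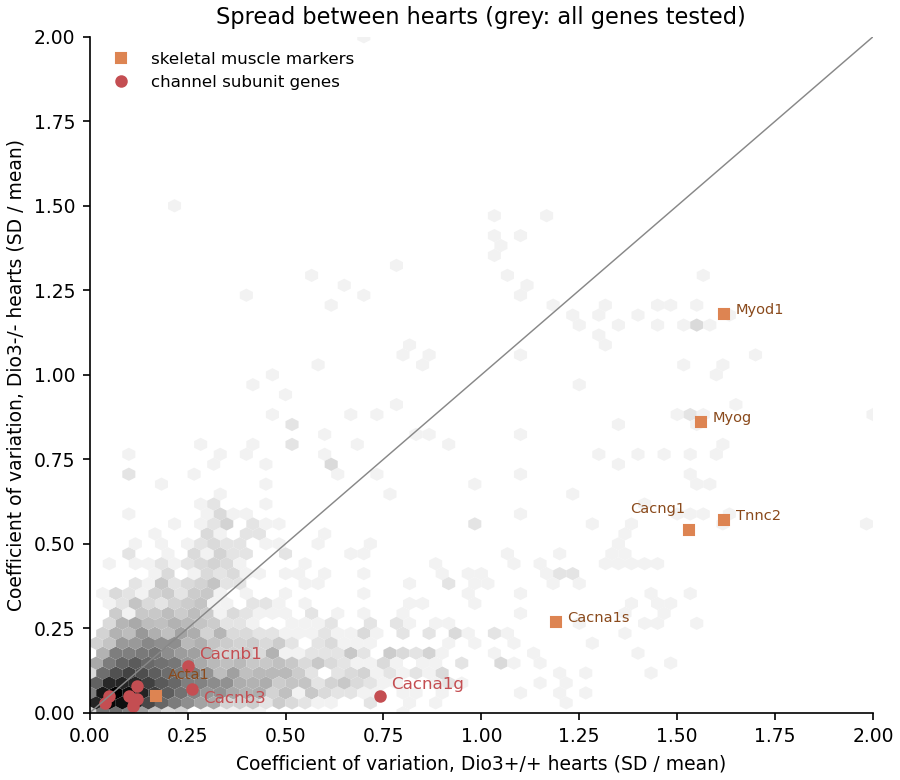
CV (SD divided by mean, over 4 hearts) of each gene in Dio3+/+ hearts (horizontal axis) and Dio3-/- hearts (vertical axis), with all genes tested as grey hexagons (darker for more genes, logarithmic shading), the 9 subunit genes as red circles and 6 skeletal muscle markers as orange squares. *Cacna1g* lay far to the right (0.74 and 0.05), between the bulk of the genes and *Cacna1s*, *Cacng1*, *Tnnc2*, *Myog* and *Myod1*.

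All 6 heart muscle markers were present at 24.2 RPKM or more in both genotypes, for example *Actc1* at 4778 (Dio3+/+) and 5638 RPKM (Dio3-/-). The mean was higher in Dio3-/- hearts for all 6, with a median log2 fold change of 0.24, 4 at an unadjusted *P* value under 0.05 and 1 (*Ryr2*) passing the adjusted threshold with limma. *Dio3* itself was low, with 0.35 RPKM (CV 1.23) and 0.13 RPKM (CV 0.76), and was not tested. *Klf9*, a direct target of thyroid hormone receptors, rose from 1.86 to 8.48 RPKM (log2 fold change 1.93, adjusted *P* = 5.7e-06 by limma). Markers of other tissues also differed between the genotype means. The summed level of 8 hepatocyte markers was 22.9 (CVs from 0.18 to 1.41, Dio3+/+) and 123 RPKM (CVs from 0.68 to 1.26, Dio3-/-), with 0 passing by limma and 8 at an unadjusted *P* value under 0.05. Of 6 red cell markers 4 were found, all 4 lower in Dio3-/- hearts and at an unadjusted *P* value under 0.05 by limma. Their median log2 fold change was -1.45. *Hbb-bh1*, an embryonic globin, fell from 318 to 111 RPKM and was the 1 that passed (adjusted *P* = 0.047 by limma). *Hbb-y*, the most abundant of the 4, had 29101 (Dio3+/+) and 9909 RPKM (Dio3-/-, adjusted *P* = 0.075 by limma). Of 3 neuronal markers tested, *Tubb3* rose to 3.54 RPKM by 0.65 on the log2 scale (adjusted *P* = 0.0086 by limma), whereas *Stmn2* and *Elavl4* had log2 fold changes of 0.07 and -0.04 and did not pass. Of 4 endothelial and 3 smooth muscle markers tested 0 passed with limma, and 2 and 1 had an unadjusted *P* value under 0.05. The part of these tissues in the subunit levels was not tested.

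Proteins that bind or modulate L-type channels gave 1 call among 21 genes tested of 24, beside the 2.29% called over all genes. An unadjusted *P* value under 0.05 by limma was reached by 6 of the 21, beside 19.7% over all genes. These were *Fhl2*, *Camk2d*, *Stac2*, *Akap6*, *Jph2* and *Cav3*, all with a higher mean in Dio3-/- hearts. Among the 21 the mean was higher for 13 and lower for 8. *Fhl2*, a LIM-domain protein of cardiac muscle, rose from 51.9 RPKM (CV 0.18) to 77.0 RPKM (CV 0.09), by 0.56 on the log2 scale (adjusted *P* = 0.048 by limma). With the log2 fold changes centred on their median the adjusted *P* value was 0.073 by limma. *Rrad*, a small GTPase that restrains L-type current, had 57.5 RPKM (CV 0.21) and 62.7 RPKM (CV 0.10) and did not pass (adjusted *P* = 0.683 by limma). The 3 calmodulin genes, whose product is a calcium sensor of these pores, were nearly level, for example *Calm2* with 112 (Dio3+/+) and 113 RPKM (Dio3-/-). *Nedd4*, a ubiquitin ligase, had the highest level of the list, with 468 (Dio3+/+) and 462 RPKM (Dio3-/-). *Stac3*, an adaptor of skeletal muscle channels, had 1.27 RPKM (CV 1.44) and 0.33 RPKM (CV 0.27). The median log2 fold change of the 21 genes was 0.03, against 0.04 over all genes tested.

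Downstream of the channels, 3 of 17 tested genes of calcium release, uptake and extrusion rose in Dio3-/- hearts and none fell, beside 1.91% higher and 0.382% lower over all genes. An unadjusted *P* value under 0.05 by limma was reached by 10 of the 17, beside 19.7% over all genes. The median log2 fold change was 0.23, and that of the 6 heart muscle markers, which share *Ryr2* with this list, was 0.24. The part of heart muscle content in these differences was not tested. *Atp2a2*, the calcium pump of the sarcoplasmic reticulum, rose from 433 RPKM (CV 0.11) to 771 RPKM (CV 0.06), a log2 fold change of 0.83 with a standard error of 0.08 (adjusted *P* = 0.0021 by limma). *Casq1*, a calcium-binding protein of that store, rose from 94.9 to 173 RPKM (adjusted *P* = 0.0048 by limma), and *Ryr2*, the calcium release channel that L-type current opens, rose from 24.2 to 36.6 RPKM (adjusted *P* = 0.023 by limma). For these 3 genes the bounds on single hearts excluded an overlap of the genotypes. *Casq2*, a relative of *Casq1* in the same list, had 70.85 (Dio3+/+) and 85.24 RPKM (Dio3-/-), a log2 fold change of 0.27, and did not pass (adjusted *P* = 0.206 by limma). The lowest log2 fold change among the tested genes of the list was that of *Atp2b4*, a calcium pump of the cell membrane, at -0.10 (adjusted *P* = 0.328 by limma). *Ryr1*, the release channel of skeletal muscle, was below the limit for testing, with 0.71 (CV 1.5) and 0.09 RPKM (CV 0.45). A difference between this list and the 9 subunit genes was not tested.

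**Figure D5:**
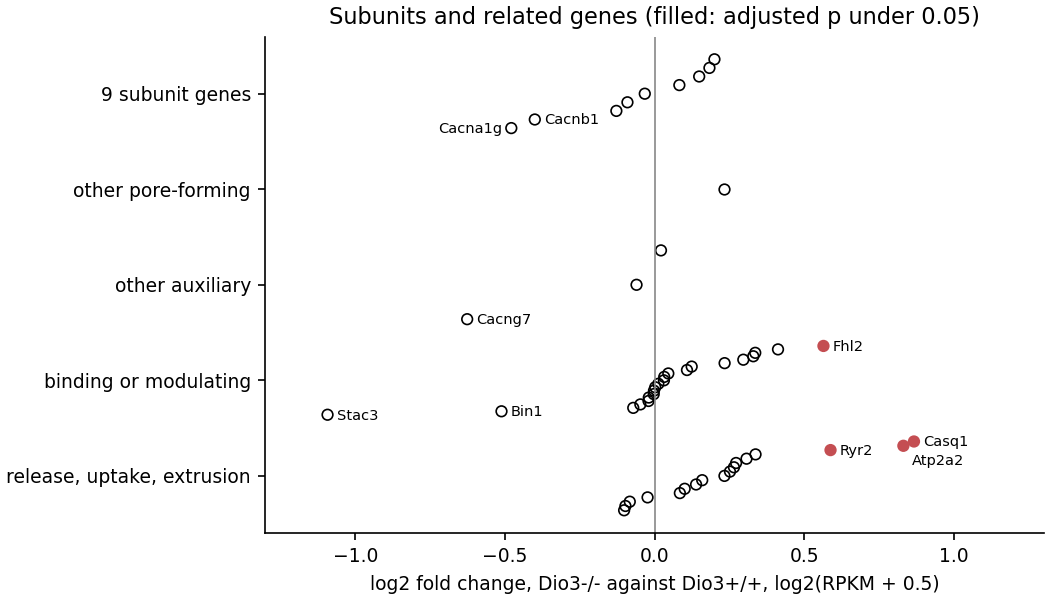
Log2 fold change of Dio3-/- against Dio3+/+ hearts (log2(RPKM + 0.5) scale) of every tested gene in the 9 subunit genes and 4 related lists, 1 row of points per list. Filled points passed the adjusted threshold, which were *Fhl2*, *Ryr2*, *Atp2a2* and *Casq1*, and none of the 9 subunit genes was among them.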

How the data were processed

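Total RNA of 8 fetal hearts was depleted of ribosomal RNA and sequenced by a company for the authors. Per the labels and the methods of the study, reads were checked with FastQC and aligned with Novoalign (2.08), and uniquely mapping reads were kept, with linear scaling of every library down to the smallest one. The build of the genome is not given in the sources used here. The authors deposited 1 mean per genotype for each UCSC transcript, read here as RPKM, the unit of the filter in the methods, since the table names no unit. They also deposited the CV, a ratio of SD to mean, rounded to 2 decimals. The largest CV in the table was 2, the value that 4 hearts give when 1 has reads. Columns with the authors' own fold changes and *q* values were not used. The table gives no read total per heart, so the precision rests on the spread between hearts, and the SD was taken as mean times CV.

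For each row, log2(mean + 0.5) was compared between genotypes, with the SD put on that scale by the delta method. The pooled variance (6 residual degrees of freedom, 3.52 prior) was moderated with limma (3.58.1, R 4.3.3) with a mean-variance trend, and tested on simulated data. The log was thus taken of genotype means rather than of single hearts, and *P* values measure the spread between these hearts. A planned comparison of subunit proteins was not run. Python (3.11.15), pandas (2.3.3) and matplotlib (3.10.9) made summaries and figures. The subunit genes, lists and tests were chosen with earlier results of these data known. Named were the 9 subunit genes, genes of the other lists that passed and other subunits above 1 RPKM. The highest and most changed tested genes were also named for the lists of channel-binding proteins and of calcium release, uptake and extrusion. *Dio3* and *Klf9* were named too. Other marker genes, other subunits below 1 RPKM, *Ryr1*, *Rrad*, *Casq2* and the calmodulins were named after their values were seen. So were *Camk2d*, *Stac2*, *Akap6*, *Jph2* and *Cav3*. Alternatives were other pseudocounts, filters, scaling, variance models and row choices.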

Additional observations from a re-analysis of the deposited data

How the results depend on the processing

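The count of subunit genes that passed was 0 of 9, or 0 of 6 above 5 RPKM, with limma or the test for unequal variances in every alternative run, and in all 78 values of single genes under these alternatives the sign of the log2 fold change was kept. The lowest adjusted *P* value among them was 0.077 (*Cacna2d1*, by limma with the filter above 5 RPKM). When centred on the median log2 ratio, the adjusted *P* values by limma were 0.20 for *Cacna2d1* and 0.30 for *Cacna1h*. The count stayed at 0 of 9 with symbols matched in any letter case and at 0 of 8 without *Cacna1g*, the gene with a CV above 0.5, both chosen after seeing the data. The number of all genes that passed was 336, and it was 197 without a filter on low values, 180 when centred on the median log2 ratio (a shift of 0.04), 187 with each CV raised by 0.005 and 27 with the test for unequal variances. That last test also lowered the 4 calls in the related lists to 0, with 12 at an unadjusted *P* value under 0.05. *Fhl2* lost its call in 5 alternatives, and *Atp2a2*, *Casq1* and *Ryr2* lost theirs with the test for unequal variances. The table gives no depth per heart, and the spread of *Cacna1g*, *Cacnb1* and *Cacnb3* in Dio3+/+ hearts limits what could be detected. Leaving out single hearts was not run, for want of their values. No paired analysis was possible because the table holds genotype means and no value for a numbered heart.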
